A study of Rattus norvegicus with 9 samples.

Results

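ADAMTS proteases are secreted, zinc-dependent enzymes that cut proteoglycans and other proteins of the extracellular matrix, and TIMPs are the secreted proteins that block metalloproteases. RNA of 7 ADAMTS genes (Adamts1, Adamts4, Adamts5, Adamts9, Adamts10, Adamts12 and Adamts15) and of 2 inhibitor genes (Timp1 and Timp3) was followed in the rat adrenal medulla after immobilization stress. The genes were taken by symbol, with every probe set of the array that is annotated to exactly 1 of them. This gave 9 genes of 14217 and 15 probe sets of 31099. The members were chosen by gene family with their log2 fold changes on these same arrays, against control and between stressed groups, already known. Their changes are therefore given as a description, with no p-value, and nothing is read from how many of them passed a threshold.

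Medullary RNA was hybridised to 9 Affymetrix arrays, 3 per group. The animals were adults weighing 280 to 320 g. Control rats were not stressed. IMO_1x rats were immobilized in 1 session of 2 h, and IMO_6x rats in 6 daily sessions of 2 h. Both medullae were dissected once the final session had ended. The sources used here do not give strain, sex or how many animals stand behind an array, and p-values thus measure the spread between these arrays, which may be technical. The organism is given as rat, while other label fields speak of mouse and of brain.

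ADAMTS enzymes are made as precursors, many of which are cut by furin-like proteases. Once secreted, many bind to the matrix or the cell surface. ADAMTS1, ADAMTS4, ADAMTS5, ADAMTS9 and ADAMTS15 cut aggrecan or versican, the large proteoglycans that fill the space between cells. TIMP3 stays bound to the matrix and blocks several ADAMTS enzymes besides matrix metalloproteases, whereas TIMP1 is soluble and acts mainly on matrix metalloproteases.

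Values are deposited intensities on a linear scale, and changes are differences of log2(value + 16) with the standard error (SE) of a limma fit of all 9 arrays. A gene was called, and is said to have risen or fallen, at a Benjamini-Hochberg adjusted p under 0.05 over 10633 genes. With 3 arrays in each group, precision is limited by their number. The IMO_6x arrays stood apart. Signal at the 3′ end of actin exceeded that at its 5′ end, a sign of RNA broken or copied in part, by 231, 6.11 and 8.87 times on IMO_6x replicates 1 to 3 and by 1.45 to 2.15 times on the other 6 arrays. Spike-in controls averaged 14.04 to 17.52 on the log2 scale in IMO_6x and 11.96 to 13.46 elsewhere. Across genes, correlations of IMO_6x replicate 1 with the remaining arrays were 0.591 to 0.734, so results that rest on it are given with and without it. Markers of chromaffin cells, the catecholamine cells of the medulla, summed to 273616 to 422620 in control, 262026 to 531440 in IMO_1x and 978344 to 2357633 in IMO_6x (8 of 9 listed markers tested). Markers of the surrounding adrenal cortex summed to 340158 to 498933, 294870 to 710124 and 1000106 to 1654860 (8 of 11 tested), so RNA of the cortex was present in every group. The highest IMO_6x sum of both lists was that of replicate 1. No tested marker of either list was at 0. In such bulk RNA, fewer cells of a type and less RNA per cell cannot be told apart. Over all genes the median log2 fold change against control was -0.13 for IMO_1x and -0.23 for IMO_6x, and median centring of the arrays made it -0.0028 and -0.0563. Rises made up 43.9% and 38.7% of the calls, 56.4% and 52.3% with quantile normalization, and 70.3% and 67.4% with median centring. Between the stressed groups that share was 53.5%, and 70% with median centring.

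The 250 bases before the start of Adamts1, Adamts4 and Adamts9, the ADAMTS genes that rose in both stressed groups, and of Timp1 are shown here, 5′ to 3′ on the strand of the gene, from RefSeq's annotation of the rat assembly GRCr8. No build is named with the intensities, and the arrays do not measure these bases. Capitals mark a match to 1 of the 7 motifs searched.
Adamts1, chr11:38427385-38427634, minus strand: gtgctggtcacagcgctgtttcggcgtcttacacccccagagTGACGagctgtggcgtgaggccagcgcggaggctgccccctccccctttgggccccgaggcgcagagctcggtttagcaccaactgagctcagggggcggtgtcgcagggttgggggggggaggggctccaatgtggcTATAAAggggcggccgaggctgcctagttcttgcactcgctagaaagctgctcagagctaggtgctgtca
Adamts4, chr13:86202761-86203010, plus strand: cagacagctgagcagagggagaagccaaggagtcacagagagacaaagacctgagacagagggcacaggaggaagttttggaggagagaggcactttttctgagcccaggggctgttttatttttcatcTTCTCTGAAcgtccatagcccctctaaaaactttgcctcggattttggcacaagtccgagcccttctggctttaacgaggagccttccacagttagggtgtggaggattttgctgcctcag
Adamts9, chr4:127019877-127020126, minus strand: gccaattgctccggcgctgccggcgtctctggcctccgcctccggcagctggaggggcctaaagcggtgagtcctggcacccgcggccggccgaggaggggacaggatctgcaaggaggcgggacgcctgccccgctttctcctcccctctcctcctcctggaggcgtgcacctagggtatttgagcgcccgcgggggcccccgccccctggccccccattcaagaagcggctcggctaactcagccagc
Timp1, chrX:3771123-3771372, minus strand: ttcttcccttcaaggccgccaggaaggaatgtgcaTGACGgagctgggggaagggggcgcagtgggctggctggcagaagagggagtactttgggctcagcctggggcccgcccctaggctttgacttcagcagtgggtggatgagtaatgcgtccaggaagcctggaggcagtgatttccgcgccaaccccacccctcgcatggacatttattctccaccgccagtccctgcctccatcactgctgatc

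Of the 9 genes 7 were in the promoter table, all but Adamts5 and Adamts15. Both strands were searched for the cAMP response element TGACGTCA, its core TGACG, the AP-1 site TGANTCA, the NR4A site AAAGGTCA, the EGR site GCGTGGG, the STAT site TTCNNNGAA and the TATA box TATAAA. The core lies inside the full element, and it and the TATA box were added after the sequences had been seen. The full cAMP response element, AP-1, NR4A and EGR letters were in 0 of the 7 windows, against 1.59%, 6.34%, 1.24% and 3.68% of 33469 rat promoters of the same length. The STAT letters were in 1 window, that of Adamts4 as TTCTCTGAA, with 7.67% of all promoters. The core was in 2, Adamts1 and Timp1 (18.2% of all), and the TATA letters in 2, Adamts1 and, on the other strand, Adamts10 (12.9% of all). A match is a string of letters in this window and does not show binding.

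After 1 session RNA of Adamts1, Adamts4 and Adamts9 was several-fold above control on each array, while that of the other 4 ADAMTS genes overlapped with control. Timp1 and Timp3 were higher on each IMO_1x array too, by a smaller amount that was not called with all 9 arrays. Of the 9 genes 3 were called up and 0 down, where 4.47% of all genes were called up and 5.71% down. Without IMO_6x replicate 1, which enters the spread shared by the 3 groups, 5 were up and 0 down (10.5% and 21.7% of all genes).

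Adamts1, which cuts aggrecan and versican, had intensities of 1437, 1385 and 1321 in control, 8633, 10015 and 10185 in IMO_1x and 5137, 6404 and 4007 in IMO_6x. The 3 groups did not overlap, with control lowest and IMO_1x highest. The rise was 2.78 ± 0.20 (SE) on the log2 scale after 1 session, or 6.88-fold, and 1.87 ± 0.20 after 6 sessions, or 3.66-fold.

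Adamts4, an aggrecan-cutting enzyme, had the largest log2 fold change of the 9 genes after 1 session. Its intensities were 657, 449 and 407 in control, 12981, 14220 and 15889 in IMO_1x and 5058, 1888 and 1893 in IMO_6x. All 3 groups were apart, and within IMO_6x replicate 1 lay far above the other replicates. The change was 4.81 ± 0.37 after 1 session (28.1-fold) and 2.37 ± 0.37 after 6 sessions (5.18-fold), or 1.90 ± 0.21 without IMO_6x replicate 1. The mean log2 level of Adamts4 in control was 8.99, near the mean level of 8.93 under which probe sets were left out. Control replicates 2 and 3, at 8.86 and 8.73, were below that level.

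Adamts9, which cuts versican and aggrecan, had intensities of 1740, 1339 and 1414 in control, 16174, 14411 and 14435 in IMO_1x and 10471, 14213 and 13614 in IMO_6x. Both stressed groups lay far above control. Against control it was 3.32 ± 0.19 higher after 1 session (9.97-fold) and 3.07 ± 0.19 higher after 6 (8.42-fold). A second probe set of Adamts9, the only one of the 15 that did not pass the filter on dim probe sets, did not follow. It read 503, 600 and 554 in control, 694, 519 and 524 in IMO_1x and 604, 220 and 261 in IMO_6x. In a fit of all probe sets with 1 symbol, a setting chosen after seeing the data, its log2 fold changes were 0.06 ± 0.49 and -0.72 ± 0.49. The call of Adamts9 rests on the brighter probe set, and which of them reads the transcript that changes was not tested.

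**Figure D1:**
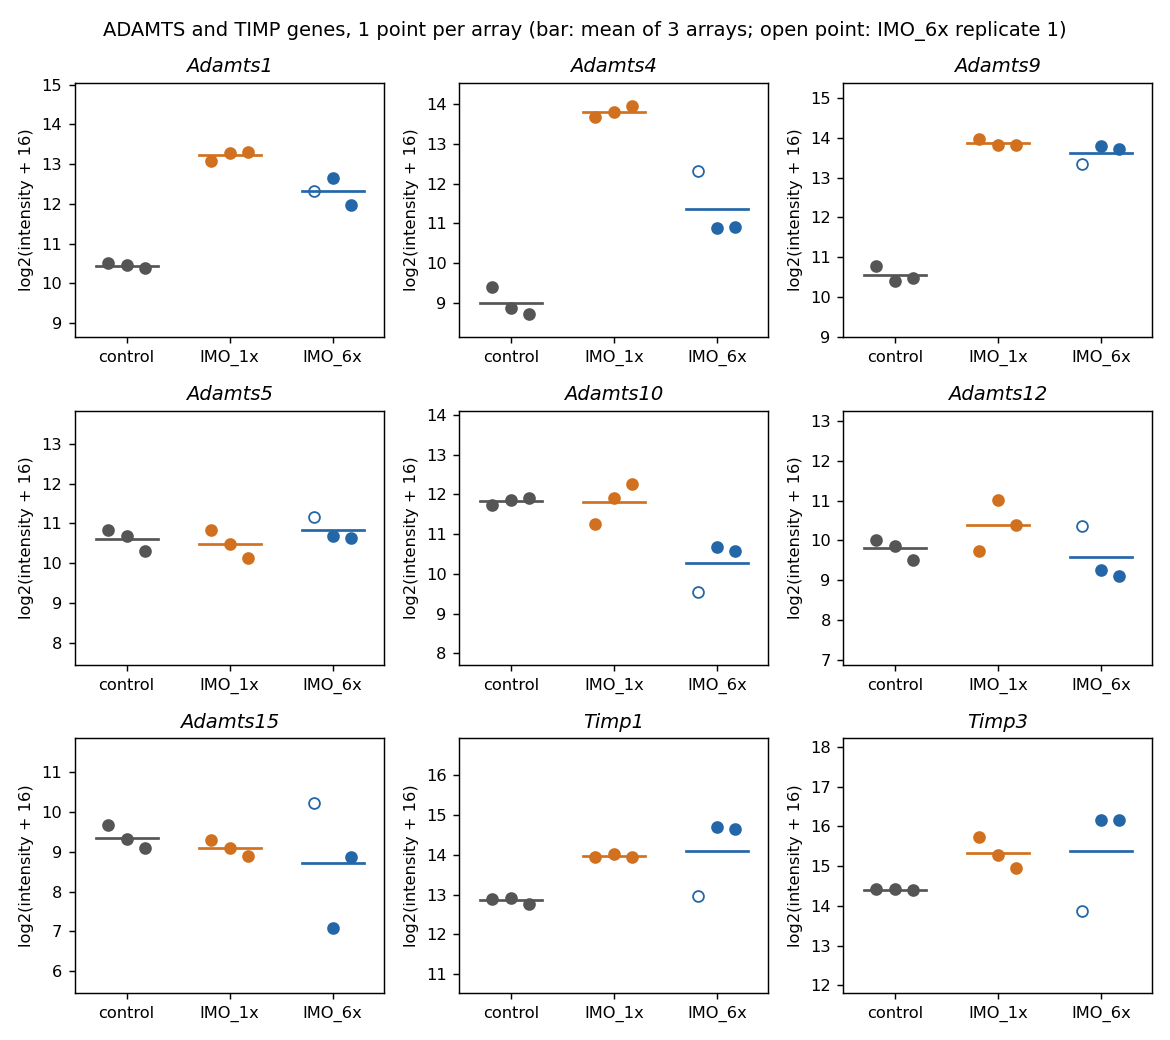
Levels of the 9 genes as log2(intensity + 16) on the vertical axis, by group on the horizontal axis, 1 point per array with the mean of 3 arrays as a bar and IMO_6x replicate 1 as an open point. Each panel spans the same range. Adamts1, Adamts4 and Adamts9 are above control on all 6 stressed arrays, and for Timp1 and Timp3 the open point lies near or below control while the other IMO_6x arrays are highest.

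The calls of these 3 genes against control held in 20 of 20 other settings for both comparisons, with log2 fold changes of 2.74 to 2.96 (Adamts1), 4.68 to 5.01 (Adamts4) and 3.24 to 3.48 (Adamts9) after 1 session. After 6 sessions the ranges were 1.68 to 2.10, 1.90 to 2.61 and 2.99 to 3.25. The settings refit the same arrays on which the genes were chosen. They describe how far the values depend on the processing and are no further evidence of a change. The second Adamts9 probe set entered none of these settings as the value of the gene, so they do not bear on its disagreement. Over the 9 arrays the log2 level of Adamts1 correlated at 0.951 with Adamts4 and at 0.951 with Adamts9, and Adamts4 with Adamts9 at 0.859. These points share arrays and fall into the 3 groups, so the values describe a common pattern and carry no test.

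Markers of smooth muscle and pericytes, the cells around small vessels, summed to 18119 to 23339 in control, 30595 to 32093 in IMO_1x and 17421 to 38102 in IMO_6x, with 0 of 6 tested members called in either comparison with control. Those of endothelium summed to 61503 to 71158, 57233 to 63792 and 50197 to 58650, with 0 of 8 called after 1 session and 2, both down, after 6. Fibroblast markers summed to 57115 to 78911, 60273 to 83099 and 38473 to 145041 (0 of 7 called after 1 session, 1 up after 6). Leukocyte markers summed to 56708 to 64833, 52265 to 66568 and 15513 to 66860 (0 of 5 called after 1 session, 1 down after 6), and Schwann and glial markers to 10185 to 13386, 11661 to 13277 and 11559 to 15481 (0 of 4 called after 1 session, 1 down after 6). In IMO_6x the lowest sum of smooth muscle, endothelial, fibroblast, leukocyte and Schwann markers was that of replicate 1. Without that array smooth muscle and pericytes had 2 markers called up after 1 session and 1 after 6, endothelium 1 up and 2 down of 9 after each, and fibroblasts 0 after 1 session and 3 up after 6. Leukocytes then had 0 called after 1 session and 2 down after 6, and Schwann cells and glia 1 up of 5 after 1 session and 1 up and 1 down after 6. The shares of all genes called at that setting were 10.5% up and 21.7% down after 1 session and 18.7% and 30.9% after 6. With all 9 arrays these shares were 4.47% up and 5.71% down after 1 session and 10.0% and 15.9% after 6. The part of these cell types in the ADAMTS changes was not tested.

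Adamts5, an aggrecan-cutting enzyme and the next protein-coding gene to Adamts1 on the GRCr8 assembly, had no called change. Its brighter probe set read 1798, 1641 and 1248 in control, 1804, 1424 and 1100 in IMO_1x and 2263, 1640 and 1567 in IMO_6x, with all groups overlapping. The log2 fold changes were -0.13 ± 0.27 after 1 session and 0.22 ± 0.27 after 6. In the fit of all probe sets with 1 symbol, the dimmer probe set differed by 0.10 ± 0.29 and 0.44 ± 0.29, with every IMO_6x array above control. The sign after 1 session turned to 0.04 with quantile normalization and to 0.05 without IMO_1x replicate 3, so no direction can be given.

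Adamts10, which binds fibrillin microfibrils, was lower after 6 sessions and not after 1. Its brighter probe set read 3379, 3724 and 3812 in control, 2430, 3794 and 4930 in IMO_1x and 730, 1610 and 1519 in IMO_6x. Each IMO_6x array was below every other array, while IMO_1x spread to both sides of control. The log2 fold change was -0.03 ± 0.34 after 1 session. After 6 sessions Adamts10 fell by 1.57 ± 0.34, a level 2.97-fold lower, and by 1.21 without IMO_6x replicate 1. The other probe set read 1186, 817 and 795 in control, 950, 855 and 656 in IMO_1x and 265, 216 and 431 in IMO_6x. In the fit of all probe sets with 1 symbol, that probe set differed from control by -0.17 ± 0.43 and -1.60 ± 0.43. The call after 6 sessions was lost with quantile normalization (-1.57) and with median centring (-1.40), and the change was -0.84 with quantile normalization without IMO_6x replicate 1.

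Adamts12, a protease of cartilage oligomeric matrix protein, and Adamts15 were not called in either comparison with control. Adamts12 read 1011, 919 and 713 in control, 840, 2069 and 1324 in IMO_1x and 1299, 592 and 534 in IMO_6x. Its log2 fold changes were 0.59 ± 0.44 and -0.22 ± 0.44, and its arrays overlapped throughout. Leaving out 1 array moved Adamts12 to between 0.27 and 0.91 after 1 session and between -0.62 and 0.01 after 6, and array weights gave a called 0.98 after 1 session. Adamts15 read 798, 623 and 529 in control, 612, 532 and 464 in IMO_1x and 1177, 120 and 452 in IMO_6x, a coefficient of variation of 92.8% within IMO_6x. The differences of Adamts15 from control were -0.26 ± 0.70 and -0.63 ± 0.70. Leaving out IMO_6x replicate 1, Adamts15 fell by 1.38, a called change, and without IMO_6x replicate 2 the value was 0.19. Adamts15 was at 7.09 and 8.87 on the log2 scale on IMO_6x replicates 2 and 3. Both are below 8.93, the mean level under which probe sets were left out.

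Timp1 was above control on each IMO_1x array with little spread, and higher again on 2 of 3 IMO_6x arrays. It read 7609, 7730 and 6911 in control, 15857, 16673 and 15799 in IMO_1x and 7945, 26557 and 25832 in IMO_6x. Replicate 1 of IMO_6x stood near control and its other replicates above every IMO_1x array. The difference after 1 session was 1.12 ± 0.40 (2.17-fold), not called with all arrays and called without IMO_6x replicate 1, where it was 1.12 ± 0.10. After 6 sessions Timp1 rose by 1.25 ± 0.40 (2.37-fold), and by 1.82 ± 0.12 without IMO_6x replicate 1. The call after 6 sessions was lost in 12 of 20 other settings, among them leaving out any 1 control array (1.20 to 1.28), any 1 IMO_1x array (1.25) and IMO_6x replicate 2 (0.95) or 3 (0.97).

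Timp3 is read by 4 probe sets, all of them higher on each IMO_1x array than on any control array. The probe set that stands for the gene in the fit, the brightest, read 21801, 21993 and 21538 in control, 54889, 39818 and 31495 in IMO_1x and 14877, 73138 and 72870 in IMO_6x. As with Timp1, IMO_6x replicate 1 was low and the other replicates were the highest of all 9 arrays. Its log2 fold changes were 0.91 ± 0.55 after 1 session and 0.98 ± 0.55 after 6, neither of them called. They were 0.91 and 1.74 when IMO_6x replicate 1 was left out, and both were then called. Timp1 and this probe set of Timp3 correlated at 0.938 over the 9 arrays.

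The other Timp3 probe sets disagreed with one another after 6 sessions. A first one read 7990, 17230 and 18244 in control, 21447, 35892 and 33957 in IMO_1x and 72604, 55956 and 57816 in IMO_6x, highest after 6 sessions on every array. A second read 2081, 1732 and 2984, then 9214, 9448 and 13466, then 4558, 7218 and 6048 in the same order of groups, highest after 1 session. The third read 1824, 1049 and 1753, then 6372, 3884 and 4903, then 141, 861 and 1031. That probe set was below every control array after 6 sessions, while the first and second were above. In a fit of all probe sets with 1 symbol, a setting chosen after seeing the data, the log2 fold changes after 6 sessions were 2.18 ± 0.35, 1.40 ± 0.27 and -1.53 ± 0.62. Without IMO_6x replicate 1, the lowest array of the third probe set, they were 2.06, 1.57 and -0.66. After 1 session they were 1.13 ± 0.35, 2.25 ± 0.27 and 1.71 ± 0.62. A direction for Timp3 after 6 sessions therefore depends on the probe set. The actin 3′/5′ ratios of the same IMO_6x arrays were 6.11 to 231, and the part of RNA quality in the split was not tested.

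**Figure D2:**
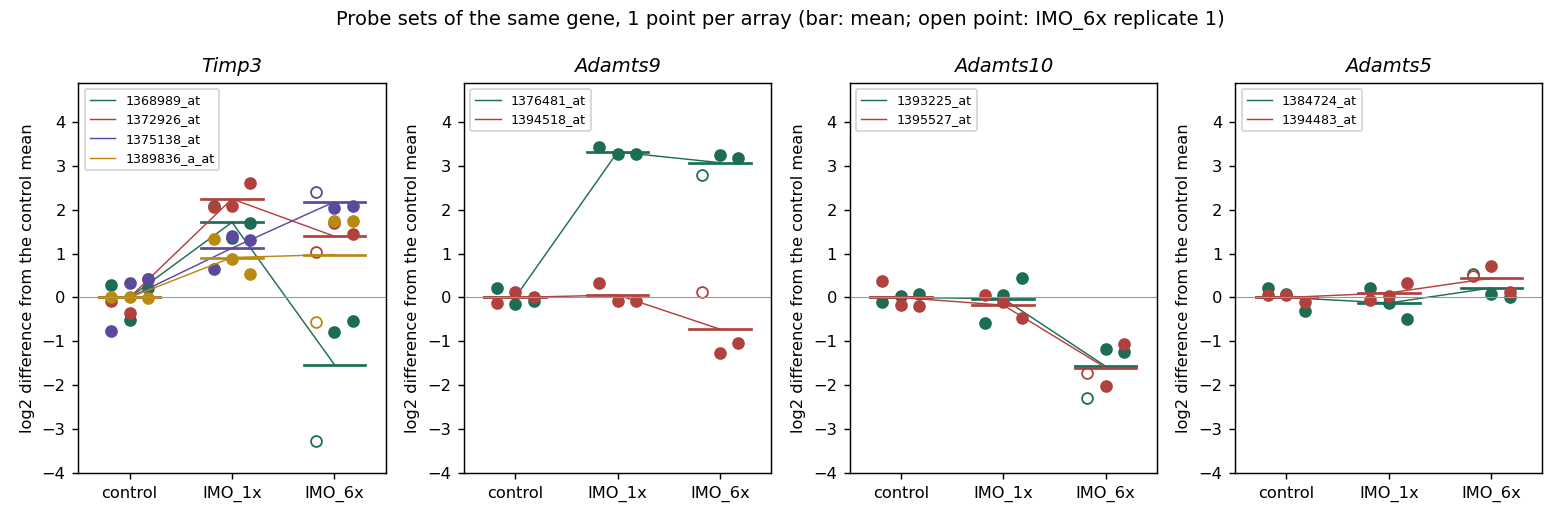
Log2 difference from the control mean on the vertical axis for each probe set of Timp3, Adamts9, Adamts10 and Adamts5, by group, 1 point per array, with group means as bars joined by a line and IMO_6x replicate 1 open. The 4 Timp3 probe sets all lie above control in IMO_1x and spread from -1.53 to 2.18 as means in IMO_6x (-0.66 to 2.06 without the open point), the Adamts9 pair splits in both stressed groups, and the Adamts10 pair lies below control together in IMO_6x.

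After 6 sessions 4 of the 9 genes were called up (Adamts1, Adamts4, Adamts9 and Timp1) and 1 down (Adamts10), where 10.0% of all genes were called up and 15.9% down. Without IMO_6x replicate 1 the counts were 5 up and 2 down (18.7% and 30.9% of all genes). The median log2 fold change of the 9 genes was 0.91 after 1 session and 0.98 after 6, against -0.13 and -0.23 for all genes. Each of these medians of the 9 is the value of Timp3, which was not called. The 9 genes were chosen with these values known, so their distance from all genes is a description. Both comparisons use the same control arrays, so a shared sign between them is not a second observation. In the IMO_6x arrays the summed chromaffin and cortex markers lay above every control array, as given above, with 5 of 8 and 6 of 8 tested members called up and 0 down. Without IMO_6x replicate 1, which had the highest sum of both lists, 6 of 8 in each list were called up and 0 down. The part of this shift in the ADAMTS and TIMP values was not tested.

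**Figure D3:**
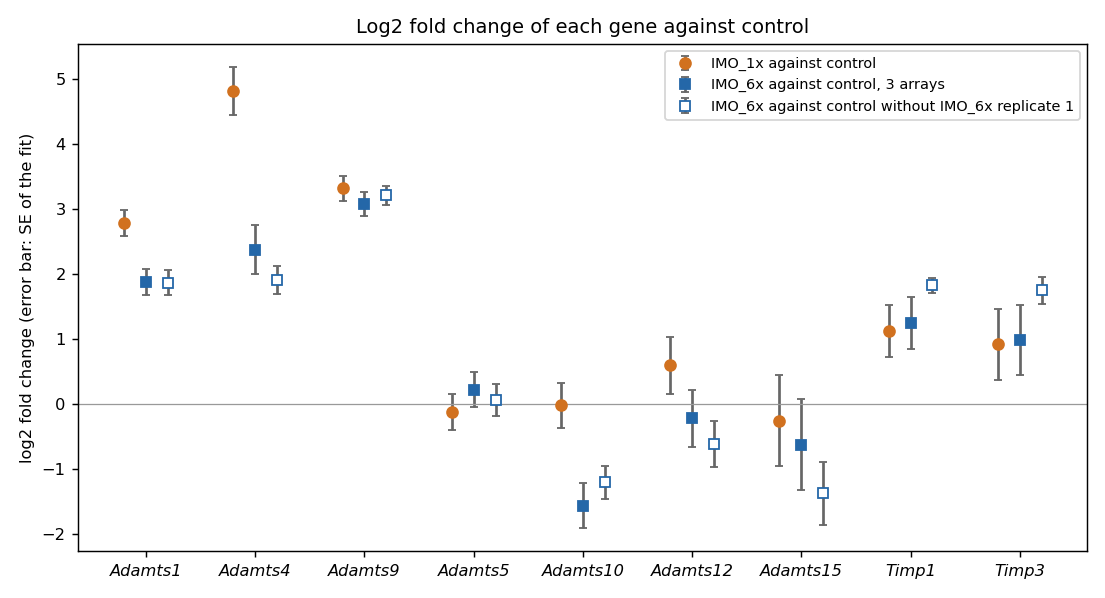
Log2 fold change against control on the vertical axis with the SE of the fit as error bar, for each of the 9 genes on the horizontal axis, after 1 session (circles), after 6 sessions (filled squares) and after 6 sessions without IMO_6x replicate 1 (open squares). Adamts4 drops from 4.81 to 2.37, Adamts9 stays at 3.32 and 3.07, and the Timp1 and Timp3 squares move up when that array is left out.

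Set directly against IMO_1x, the IMO_6x arrays had lower Adamts1, Adamts4 and Adamts10, and no member of the 9 was called higher. Adamts1 fell by 0.91 ± 0.20, Adamts4 fell by 2.44 ± 0.37 and Adamts10 fell by 1.54 ± 0.34, each with no overlap between the 3 and 3 arrays. Adamts9 differed by -0.24 ± 0.19, with the arrays just apart (14411 the lowest in IMO_1x and 14213 the highest in IMO_6x) and no call. Timp1 differed by 0.13 ± 0.40 and Timp3 by 0.07 ± 0.55, and by 0.70 and 0.83 without IMO_6x replicate 1, where both were called up. In all 0 of the 9 genes were called up and 3 down, where 5.79% of all genes were called up and 5.04% down. Without IMO_6x replicate 1 they were 2 up and 4 down (16.1% and 17.2% of all genes).

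These calls were less steady than those against control. That of Adamts1 was lost without IMO_1x replicate 1 (-0.99), 2 (-0.88) or 3 (-0.87), without IMO_6x replicate 3 (-0.74), by median centring (-0.87) and in a fit of only these 2 groups (-0.91). For Adamts4 it was lost without IMO_1x replicate 2 (-2.44) or 3 (-2.36) and with only these 2 groups (-2.44), and its log2 fold change kept its sign over a range of -2.93 to -2.16. The call of Adamts10 was lost without IMO_1x replicate 2 (-1.50) or 3 (-1.31), with quantile normalization (-1.64), with median centring (-1.50) and with only these 2 groups (-1.54).

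The genes whose pattern over the 9 arrays was most like that of Adamts1 were Fosb, a part of the AP-1 transcription factor (Pearson r = 0.991), Mybl1, a Myb family transcription factor (0.989), Stk10, a serine/threonine kinase (0.987), Irs2, an adaptor of the insulin receptor (0.985), and Cdkl4 (0.985). Over the 8 arrays without IMO_6x replicate 1 they correlated at 0.985 to 0.993. Irs2 differed from control by 3.03 and 2.36 on the log2 scale after 1 and 6 sessions. The mean log2 level of Fosb in control was 5.80, below the level of 8.93 under which probe sets were left out by their mean over all arrays. The size of its difference therefore depends on the pseudocount and is not given. Most like Timp1 were Strap (0.979), Ugp2 (0.976), Txndc5, a protein disulfide isomerase of the endoplasmic reticulum (0.975), Sltm (0.973) and Hdlbp (0.970), with differences of 0.54 to 0.91 after 1 session and 0.56 to 1.20 after 6. These are descriptions over arrays that share 3 groups.

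Other genes of matrix breakdown were taken from 7 lists of 106 genes, of which 85 had a probe set and 54 passed the filter on dim probe sets. After 1 session 6 of the 54 rose and 1 fell, where 4.47% of all genes were called up and 5.71% down, with a median log2 fold change of 0.13 against -0.13 for all genes. After 6 sessions 8 rose and 5 fell, where 10.0% of all genes were called up and 15.9% down (median 0.08 against -0.23). With IMO_6x replicate 1 left out, of 53 tested, 9 rose and 3 fell after 1 session (10.5% and 21.7% of all genes) and 17 rose and 9 fell after 6 (18.7% and 30.9% of all genes), so calls over all genes became more frequent too. The adjusted p-values that follow are limma's, with Benjamini-Hochberg adjustment over all genes. These lists were also chosen with earlier results of these data known, so their calls and adjusted p-values are a description.

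Among other ADAMTS and ADAMTS-like genes 4 of 18 were tested. Adamtsl2, a protein without protease activity that binds fibrillin microfibrils, rose by 0.92 ± 0.24 (SE) after 1 session (adjusted p = 0.0405), and 0 of the 4 were called after 6. Its call was lost without control replicate 1 or 3, any IMO_1x array or IMO_6x replicate 3, and with median centring (0.74 to 1.11 over all settings). Adamts8, the gene next to Adamts15 on GRCr8, differed by 0.92 ± 0.55 and 0.99 ± 0.55. Its mean log2 level in control was 8.72, below the filter level of 8.93, so it passed through its stressed arrays. Leaving out IMO_6x replicate 1 gave 0.92 ± 0.29 after 1 session, then called (adjusted p = 0.0316), and 0.35 ± 0.32 after 6 for Adamts8. Adamts7 differed by 0.05 ± 0.38 and 0.52 ± 0.38, and the second value was 0.25 without that array.

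Of 5 other inhibitors tested, Timp2, another TIMP, was called up after 6 sessions at 0.70 ± 0.23 (adjusted p = 0.0492), and 0 of the 5 were called after 1. The Timp2 call held in 10 of 20 other settings, and was lost without any 1 control array, IMO_1x replicate 2 or 3, or IMO_6x replicate 2, among others (0.33 to 0.87 over all settings). Reck, a membrane-anchored inhibitor, differed by 0.08 ± 0.80 and -1.25 ± 0.80, and the second value was -0.10 ± 0.29 without IMO_6x replicate 1.

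Of 7 matrix metalloproteases tested, Mmp14, the membrane-bound enzyme that activates MMP2, fell in both stressed groups. Its log2 level was 14.44 ± 0.03 in control (SD, n = 3 each), 13.08 ± 0.21 in IMO_1x and 12.27 ± 0.25 in IMO_6x. It fell by 1.37 ± 0.19 (SE, adjusted p = 0.00239) and by 2.18 ± 0.19 (adjusted p = 0.000184), and the first call was lost with median centring. After 6 sessions Mmp17 rose by 0.97 ± 0.26 (adjusted p = 0.024) and Mmp23 by 1.48 ± 0.36 (adjusted p = 0.0145). The Mmp17 call was lost without any 1 control array and with only the 2 groups (0.72 to 1.20 over all settings), and that of Mmp23 without control replicate 1 or 3 and with the mean of its probe sets, where it was 0.24. Mmp2, the gelatinase, differed by 0.17 ± 0.33 and 0.08 ± 0.33.

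The membrane ADAM family, many of whose members shed proteins from the cell surface, had 0 of 8 tested members called after 1 session. After 6 sessions Adam10 fell by 2.86 ± 0.37 (adjusted p = 0.00101) and Adam9 fell by 2.34 ± 0.60 (adjusted p = 0.0188), while Adam15 rose by 2.09 ± 0.34 (adjusted p = 0.0029). The IMO_6x means of Adam10 and Adam9, 8.54 and 7.86, were below the filter level of 8.93. Both genes passed the filter through their other arrays. The calls of Adam10 and Adam15 held in every other setting run in which they were tested (19 and 20), and that of Adam9 was lost without control replicate 1 (-2.60 to -1.80 over all settings). All these settings use IMO_6x arrays, where the actin 3′/5′ ratio was 6.11 to 231. The part of RNA quality in these ADAM values was not tested. Adam17, which sheds TNF, differed by -0.69 ± 0.25 and -0.64 ± 0.25, neither called. Without IMO_6x replicate 1 the first Adam17 value was called (-0.69 ± 0.17, adjusted p = 0.00948) and the second was -0.41 ± 0.18.

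Of 15 substrates and matrix partners tested, 2 rose after 1 session. Tnfaip6, a hyaluronan-binding protein, rose by 4.81 ± 0.56 (adjusted p = 0.000866), and Nid1, a basement membrane protein, by 1.34 ± 0.27 (adjusted p = 0.0138). The mean log2 level of Tnfaip6 in control was 8.90, below the filter level of 8.93, so it passed through its stressed arrays. Its change after 1 session was 4.25 to 5.21 over all settings. After 6 sessions Tnfaip6 rose by 2.10 ± 0.56 (adjusted p = 0.023) and Nid1 by 2.17 ± 0.27 (adjusted p = 0.000804), and Cspg4, a pericyte proteoglycan, fell by 1.15 ± 0.31 (adjusted p = 0.0229). The aggrecan gene Acan differed by 0.15 ± 0.81 and -0.21 ± 0.81, and the versican gene Vcan did not pass the filter. Without IMO_6x replicate 1 Acan did not pass the filter either, so it has no value without that array. Tnfaip6 kept its call in 20 of 20 settings after 1 session. After 6 it was lost without control replicate 2 or 3, without IMO_6x replicate 2 or 3, with quantile normalization and with median centring (1.84 to 2.86). For Nid1 after 1 session the call was lost without control replicate 1 or 3 or IMO_1x replicate 1 or 2, and with median centring (1.18 to 1.47), and for Cspg4 without any 1 control array with only the 2 groups and with quantile normalization or median centring (-1.34 to -0.42).

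Of 9 genes of activation and uptake, Pcsk6, a furin-like protease, rose by 1.95 ± 0.34 after 1 session (adjusted p = 0.00702) and by 1.39 ± 0.34 after 6 (adjusted p = 0.0157). The mean log2 level of Pcsk6 in control was 8.43, below the filter level of 8.93, so it passed through its stressed arrays. Furin itself differed by -0.10 ± 0.18 and -0.19 ± 0.18. The first Pcsk6 call was lost without IMO_1x replicate 2 and the second without control replicate 2 or 3, with only the 2 groups and with quantile normalization or median centring, with the changes at 1.81 to 2.14 and 1.23 to 1.95 over all settings.

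In the plasminogen activator system 2 of 6 tested genes rose after 1 session. Plaur, the urokinase receptor, rose by 2.98 ± 0.50 (7.89-fold, adjusted p = 0.00542), and Plat, tissue plasminogen activator, by 1.84 ± 0.43 (3.59-fold, adjusted p = 0.0239). The mean log2 level of Plaur in control was 8.21, below the 8.93 under which probe sets were left out. Plaur therefore passed the filter through its stressed arrays, and its change was 2.77 to 3.14 over all settings. The Plat call was lost without control replicate 2 or 3, without any 1 IMO_1x array and with median centring (1.73 to 2.02 over all settings), and that of Plaur with median centring. After 6 sessions Plaur differed by 1.495 ± 0.495 (2.82-fold, adjusted p = 0.0512) and Plat by 0.80 ± 0.43 (adjusted p = 0.192), neither called. Both were called up without IMO_6x replicate 1, Plaur at 2.06 ± 0.30 (adjusted p = 0.000436) and Plat at 1.40 ± 0.17 (adjusted p = 0.000172). After 6 sessions Serpini1, the inhibitor neuroserpin, rose by 1.01 ± 0.21 (adjusted p = 0.00795) and Plau, urokinase, fell by 1.03 ± 0.29 (adjusted p = 0.0292). For Plau that call held in 10 of 20 other settings and was lost without any 1 control array, IMO_1x replicate 2 or 3, or IMO_6x replicate 2 or 3, among others (-1.35 to -0.72 over all settings). For Serpini1 it held in 18 of 20 and was lost with median centring and with the mean of its probe sets (0.52 to 1.18). In the same IMO_6x arrays the actin ratio was 6.11 to 231, and its part in these values was not tested.

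**Figure D4:**
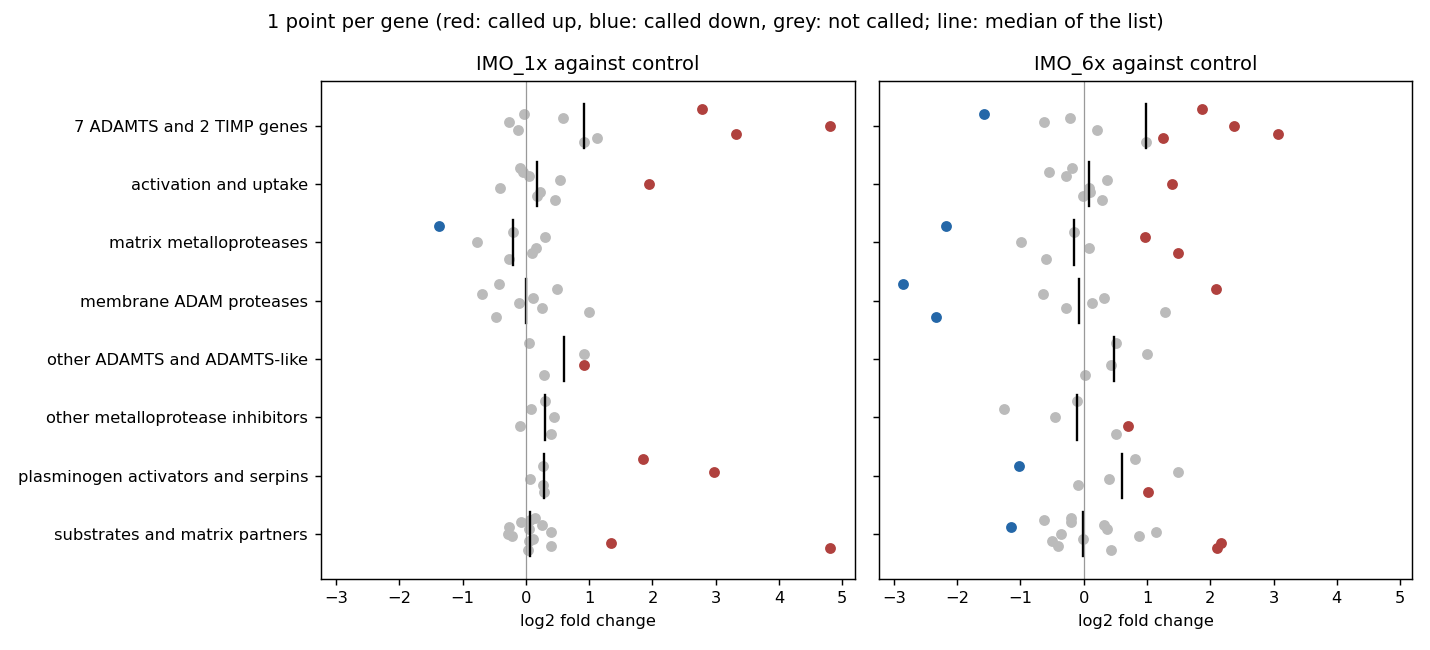
Log2 fold change on the horizontal axis for each tested gene of the 9 ADAMTS and TIMP genes and of the 7 related lists, after 1 session (left) and 6 sessions (right), 1 point per gene, red for called up, blue for called down and grey for not called, with the list's median as a line. After 1 session the points beyond 2.5 are Adamts1, Adamts4, Adamts9, Plaur and Tnfaip6, and the only called fall is Mmp14.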

How the data were processed

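The values are the deposited table of intensity on a linear scale, with 1 number for each probe set on each array. Per the labels' protocols the manufacturer labelled the RNA. The probe summary method, the background step and the target of the scaling: not given in the sources used here. How dim probe sets were treated is therefore unknown. The medians of the 9 arrays were 593 to 1583, and their trimmed means, with the lowest and highest 2% left out, 2500.6 to 2501, which shows a scaling of whole arrays.

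Probe sets were named from the platform annotation: 20826 had 1 symbol, 436 several and 9780 none, and the last 2 kinds and 57 array controls were left out. From log2(value + 16) the dimmest 30% of named probe sets by mean level were dropped (14 of the 15 probe sets here passed, and all 9 genes), and the brightest probe set stood for each gene. The comparisons used limma 3.58.1 under R 4.3.3 (lmFit, eBayes with trend, all 9 arrays, 6 residual degrees of freedom, two-sided), after a check on simulated data. The simulated arrays took their spread from the control and IMO_1x arrays alone, so the check does not cover the wider spread of IMO_6x. The genes, lists and rules were chosen with earlier results of these data known. Of each related list up to 4 called genes per comparison with the smallest adjusted p were named, plus the 5 genes most correlated with Adamts1 and with Timp1. Genes named without a call (Adamts7, Adamts8, Reck, Mmp2, Adam17, Acan, Vcan and Furin) were chosen after their values were seen. Other settings were the filter, scaling, pseudocount, choice of probe set, array weights, a replicate block, fits of 2 groups and leaving out each array.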

Additional observations from a re-analysis of the deposited data

Results flagged for a closer look

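Between IMO_6x and IMO_1x the log2 differences of Adamts4, Adamts1 and Adamts10 were -2.44, -0.91 and -1.54. These genes were chosen with the values known, so passing the threshold is a description here and no test of a difference. The related lists were also chosen with earlier results known, so their calls are a description too. Among 54 related genes 6 were called in IMO_6x against IMO_1x, 2 up and 4 down, where 5.79% of all genes were called up and 5.04% down. Their log2 differences were -2.44 for Adam10, -2.71 for Tnfaip6, -1.30 for Plau and -0.81 for Mmp14, and 1.60 for Adam15 and 1.39 for Mmp23. Each of these 9 calls was lost in a fit of only those 2 groups, and that of Mmp14 ranged from -0.95 to 0.20 over all settings.

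The array controls, which no comparison uses, read actin 3′/5′ ratios of 231, 6.11 and 8.87 in IMO_6x replicates 1, 2 and 3, above the 1.45 to 2.15 of control.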

How the results depend on the processing

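The counts of called genes in the 3 comparisons were recomputed in 20 other settings. Over all genes 1082, 2751 and 1152 were called after 1 session, after 6 sessions and between the stressed groups. With median centring they were 219, 681 and 60, with array weights (whose fit stopped short of its tolerance) 4399, 6279 and 5310, and with only the 2 groups 3187, 1574 and 3. Quantile normalization gave 661 for the last, and without IMO_6x replicate 1 it gave 3412 and 2404 for the first and last. Leaving out 1 array gave 380 to 3413, 1442 to 5261 and 39 to 3527.

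Of the 9 ADAMTS and TIMP genes 3, 5 and 3 were called, 3 and 1 with median centring in the comparisons with IMO_6x, 6 and 6 with array weights in those with IMO_1x, 5 and 0 with only the 2 groups in the same, and 5 after 1 session with quantile normalization without IMO_6x replicate 1. Leaving out 1 array gave 3 to 5, 4 to 7 and 0 to 6. Of the related genes 7, 13 and 6 were called, with 2, 7 and 1 by median centring, 16, 34 and 30 by array weights, 8 and 0 in the comparisons with IMO_6x with only the 2 groups, 13 and 23 against control by quantile normalization without IMO_6x replicate 1, and 3 between stressed groups with the mean of probe sets. Leaving out 1 array gave 3 to 12, 6 to 26 and 0 to 15. No called log2 fold change of the 9 genes reversed, and the cause of the other moves was not tested. Adamts12 and Adamts15 had 19 settings, since they were left out with the dimmest 50%.

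When the replicate number entered as a block, 998, 2750 and 978 genes and 3, 4 and 3 of the 9 were called, and Timp1 lost its call after 6 sessions (1.25). Deviations of same-numbered arrays correlated at 0.029 to 0.521, others at -0.44 to 0.28, and 7 of 9 arrays fitted best with their own number. No pairing is stated, and what same-numbered arrays share was not tested. The main fit does not take the replicate number into account.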
